A study of Mus musculus with 130 samples.

Results

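The 10 mitochondrially encoded messages mt-Nd1, mt-Nd2, mt-Nd4, mt-Nd5, mt-Nd6, mt-Co1, mt-Co2, mt-Co3, mt-Atp6 and mt-Cytb were followed through single mouse embryos of the 2-cell stage. They were taken by name from the 13 protein genes of the mitochondrial genome, and all 10 were found among the 35973 named genes of the series, of which 30258 had a count. In total 130 embryos were measured with Smart-seq2, a full-length cDNA method that was primed with oligo-dT. In the SR1848 group were 80 embryos, B6129F1 zygotes collected 5 hours after fertilization and kept from 6 hours in KSOM medium with 10 µM SR1848, a small molecule used to block the nuclear receptor Nr5a2. The DMSO group held 50 embryos of the same strain and collection time, kept from 6 hours in KSOM with 0.1% DMSO by their treatment label. Their titles give the condition as NT instead. No DMSO percent is labelled for the SR1848 group. Neither group was cultured under oil. Of the 56 controls that the design text counts, 6 were not used here. Which embryos shared a female, a culture chamber or a library plate is unlabelled. The p-values reflect embryo-to-embryo spread that may in part be technical. Embryos that shared these may not be independent, so the p-values can be too small. Any difference in chamber or plate between the groups cannot be told apart from SR1848.

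Mitochondrial DNA is a small circle that is copied from both strands into long precursors. Cutting, mostly at the transfer RNAs between the genes, releases the messages, and most of them then receive poly(A) tails. The mitochondrial messages encode core subunits of the respiratory chain: the Nd genes of complex I, mt-Cytb of complex III, the Co genes of complex IV and mt-Atp6 of ATP synthase. The egg hands its mitochondria and their RNA to the embryo, and the nucleus supplies every protein that transcribes, cuts, tails and translates them.

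A few of the messages end in an incomplete stop codon, which the poly(A) tail completes in vertebrate mitochondria. The lengths of mt-Cytb, mt-Nd4 and mt-Co3 (1144, 1378 and 784 bases) leave 1 base over when divided by 3. Their last 30 bases are shown from the GENCODE M21 transcripts on mm10, at chrM:15259-15288, chrM:11515-11544 and chrM:9361-9390 on the plus strand, with the base that begins the stop codon in capitals.
mt-Cytb: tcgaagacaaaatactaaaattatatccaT
mt-Nd4: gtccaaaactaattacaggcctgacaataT
mt-Co3: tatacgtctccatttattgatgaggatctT

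Nuclear chromosomes carry copies of mitochondrial sequence, and how alike a copy is decides whether reads can be told apart. Among the deposited entries, 11 annotated nuclear copies matched the 13 protein genes at 95% identity or more over at least 90% of their own length, and 7 of the 10 messages had such a copy. The annotated copies of mt-Atp6, mt-Co1, mt-Co2, mt-Co3 and mt-Nd4 with the highest identity lie side by side on chromosome 1. Gm10925 (chr1:24613974-24614651, minus strand, an unprocessed pseudogene) matched mt-Atp6 at 100% over its 678 bases, and none of its stretches of 31 bases, the word length used in the comparison, was missing from mt-Atp6. Of the 651 such stretches of mt-Atp6 itself only 3 occurred in no other annotated transcript. Shown are the last 60 bases of mt-Atp6 (chrM:8548-8607, plus strand) and the last 57 of Gm10925 (chr1:24613974-24614030, minus strand), with the bases that the copy lacks in capitals, because the largest difference between the groups falls on this pair.
mt-Atp6: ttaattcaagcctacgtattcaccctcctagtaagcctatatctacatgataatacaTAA
Gm10925: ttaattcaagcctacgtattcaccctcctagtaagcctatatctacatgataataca

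The closest annotated copy of mt-Cytb, Gm11410 on chromosome 4, was 92.9% identical over 1142 bases and had a mean below 1 CPM in either group. A stretch of 60 bases of each is shown for contrast (chrM:14446-14505 and chr4:80004290-80004349, both plus strand), with the 7 bases that differ in capitals.
mt-Cytb: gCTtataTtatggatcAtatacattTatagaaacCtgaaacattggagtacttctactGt
Gm11410: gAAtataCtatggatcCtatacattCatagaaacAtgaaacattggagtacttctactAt
No stretch of 31 bases of mt-Nd1 occurred in another annotated transcript, against 6.55% of those of mt-Cytb, 63.9% of mt-Co1, 99.9% of mt-Co3 and 100% of mt-Co2.

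The 10 messages together took 5.03 ± 2.58% of counts in SR1848 embryos (SD, n = 80) and 4.27 ± 1.76% in DMSO embryos (SD, n = 50). The share ran over 1.36%, 4.90% and 13.1% (lowest, median and highest embryo) with SR1848 and over 1.25%, 4.31% and 10.9% with DMSO, so the groups overlapped over almost their whole range. With the counts of the nuclear copies added, the means were 5.88 ± 3.25% with SR1848 and 5.25 ± 2.25% with DMSO. The medians then stood the other way round, at 5.11% with SR1848 and 5.24% with DMSO. All of these are shares of the RNA sequenced after oligo-dT priming. More mitochondrial message and less nuclear message in an embryo cannot be told apart by them. Levels are given in CPM, the count scaled to a common library size after TMM scaling of the library sizes, and tests are edgeR's quasi-likelihood test over 13164 genes with a threshold of 0.05 on the adjusted p.

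At the level of calls, 7 of the 10 messages were higher with SR1848 and 0 were lower, where 45.6% of all genes tested were called higher and 36.5% lower. The median log2 fold change of the 10 was 0.45, against 0.24 over all genes tested. The other 3 messages, mt-Nd2, mt-Nd5 and mt-Cytb, had positive fold changes that did not pass. These calls moved with the scaling: the median of all genes was 0.24 with TMM, 0.05 with total counts, 0.46 with upper-quartile factors and -0.72 when the summed oocyte transcripts were taken as the library size. Upper-quartile factors called all 10 higher, where 51.1% of genes were called higher and 32.3% lower. With total counts 3 messages were called higher (mt-Nd1, mt-Nd6 and mt-Atp6) and 0 lower, where 40.1% and 39.9% of genes were. With the oocyte transcripts as the yardstick mt-Atp6 alone was higher and 8 messages were lower, where 15.8% and 58% of genes were. The summed yardstick was itself higher with SR1848 (median 46235 CPM, against 23157 CPM with DMSO), which by itself lowers the other genes under that scaling. With total counts and with the oocyte yardstick, as with TMM, 9 of the 10 lay above the median of all genes. Among the embryos numbered above 40 alone (40 with SR1848, 15 with DMSO) mt-Atp6 was the single message called higher and 0 were lower, where 33.4% and 28.9% of genes were, and the median of the 10 was 0.21, against 0.25 over all genes. With the embryo number as a block, 7 were higher and 0 lower, where 41.3% and 39.2% of genes were.

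**Figure D1:**
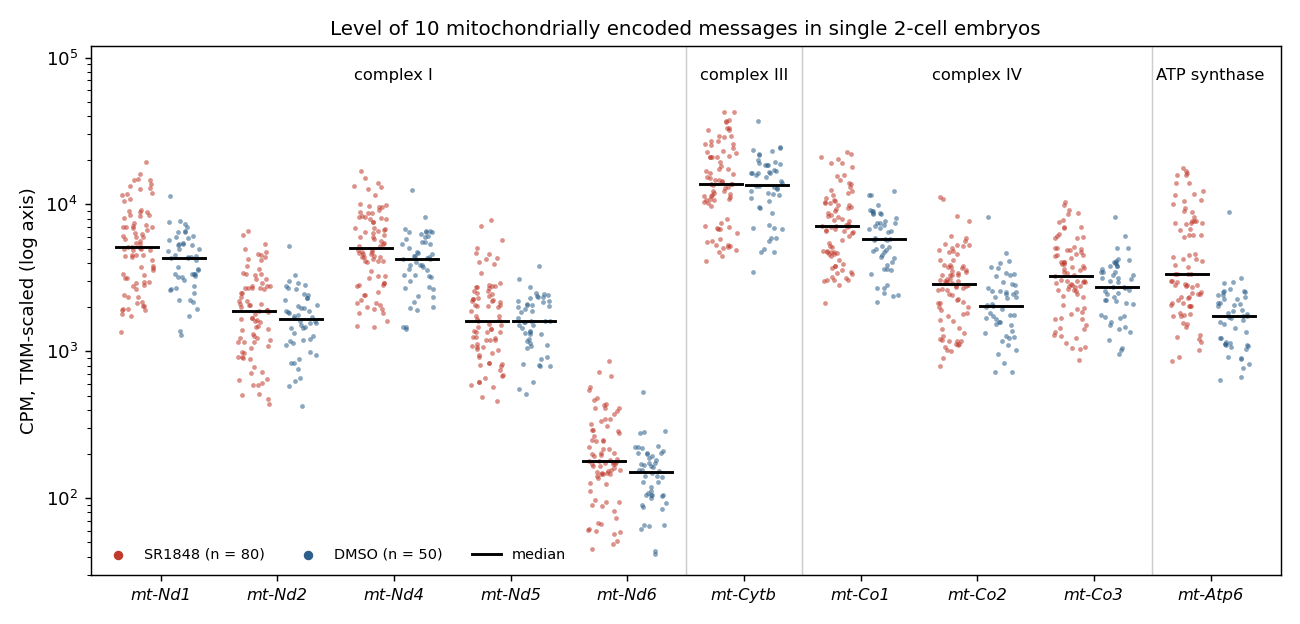
Level of each of the 10 messages in every embryo, in TMM-scaled CPM on a log axis, with SR1848 embryos (n = 80) left of DMSO embryos (n = 50) and a black bar at the median. The clouds of the groups overlap for all 10 messages, and the mt-Atp6 medians are 3360 CPM in SR1848 embryos and 1732 CPM in DMSO embryos.

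Among the complex I messages, mt-Nd1, a subunit of the membrane arm where ubiquinone binds, had 1350, 5125 and 19519 CPM in SR1848 embryos (lowest, median, highest) and 1286, 4303 and 11424 CPM in DMSO embryos. It was 1.43-fold higher with SR1848 (log2 fold change 0.51, SE 0.149, edgeR adjusted p = 0.00105), with 12 of the 80 SR1848 embryos above every DMSO embryo. The mt-Nd4 message, which encodes a proton-pumping subunit, had 1465, 5048 and 16946 CPM with SR1848 and 1427, 4256 and 12581 CPM with DMSO. Its difference was 1.34-fold (log2 fold change 0.43, SE 0.142, edgeR adjusted p = 0.00434), and 6 SR1848 embryos lay above every DMSO embryo. The other pumping subunits, mt-Nd2 and mt-Nd5, did not pass.

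The mt-Nd2 values were 436, 1874 and 6627 CPM with SR1848 and 427, 1657 and 5250 CPM with DMSO (log2 fold change 0.30, SE 0.153, edgeR adjusted p = 0.0596). For mt-Nd5 they were 459, 1616 and 7801 CPM with SR1848 and 512, 1597 and 3829 CPM with DMSO (log2 fold change 0.29, SE 0.149, edgeR adjusted p = 0.0659). The mt-Nd5 medians were nearly level, with exactly 40 of 80 SR1848 embryos above the DMSO median, while SR1848 embryos reached farther at both ends: 10 stood above and 2 below every DMSO embryo.

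The message of the remaining complex I subunit, mt-Nd6, is the only one of the 10 read from the opposite strand, and it was the scarcest. It had 44.7, 178 and 856 CPM with SR1848 and 41.6, 151 and 526 CPM with DMSO, a 1.47-fold difference (log2 fold change 0.55, SE 0.158, edgeR adjusted p = 0.000925). The single highest DMSO embryo set that upper end: the next had 286 CPM, and 22 of the 80 SR1848 embryos exceeded it. No source used here states whether the counting used strand, so mt-Nd6 reads and reads of the opposite precursor across the same stretch cannot be told apart. The longest run of A in mt-Nd6 was 3 bases, against 4 to 8 in the other 9 messages. The part of that run, or of a short or missing poly(A) tail, in the mt-Nd6 level after oligo-dT priming was not tested.

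The single complex III message, mt-Cytb, encodes cytochrome b, the subunit that carries electrons across the membrane. It had 4144, 13813 and 42583 CPM in SR1848 embryos and 3481, 13663 and 36960 CPM in DMSO embryos. The difference did not pass (log2 fold change 0.22, SE 0.146, edgeR adjusted p = 0.163), and it lay just below the median of all genes, the only one of the 10 to do so.

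The complex IV messages encode the 3 catalytic core subunits of cytochrome c oxidase. The mt-Co1 message had 2130, 7098 and 22875 CPM with SR1848 and 2166, 5794 and 12362 CPM with DMSO (1.38-fold higher with SR1848, log2 fold change 0.47, SE 0.137, edgeR adjusted p = 0.00131). It had the most SR1848 embryos above every DMSO embryo after mt-Atp6, 14 of 80. That rank rested on DMSO embryo 50. Above the next DMSO embryo lay 17 SR1848 embryos for mt-Co1, against 22 each for mt-Nd1 and mt-Nd6. The mt-Co2 message had 796, 2888 and 11255 CPM with SR1848 and 720, 2049 and 8215 CPM with DMSO (1.39-fold, log2 fold change 0.47, SE 0.146, edgeR adjusted p = 0.00224). The mt-Co3 message had 866, 3267 and 10421 CPM with SR1848 and 957, 2738 and 8192 CPM with DMSO (1.30-fold, log2 fold change 0.38, SE 0.14, edgeR adjusted p = 0.0106), but missed the threshold in DESeq2 (0.26, adjusted p = 0.0697) and limma-voom (0.28, adjusted p = 0.0601). The values of mt-Co2 and mt-Co3 are uncertain, since nearly all of their sequence is shared with nuclear copies.

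The mt-Atp6 message encodes the membrane subunit of ATP synthase through which protons pass. Its deposited counts stood at 863, 3360 and 17685 CPM in SR1848 embryos and at 639, 1732 and 8902 CPM in DMSO embryos. The groups overlapped, but 70 of the 80 SR1848 embryos were above the DMSO median, and the 8902 CPM came from DMSO embryo 54, with the next DMSO embryo at 3172 CPM and 42 SR1848 embryos above it. By the deposited counts the message was 2.90-fold higher with SR1848 (log2 fold change 1.53, SE 0.189, edgeR adjusted p = 8.65e-13). In the authors' deposited table, where 45.6% of transcripts with an adjusted p passed 0.05, it was the only one of the 13 mitochondrial messages to pass (log2 fold change 1.23, adjusted p = 3.29e-11).

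The division of counts between mt-Atp6 and its nuclear copy also differed between the groups' embryos. Gm10925, which has no sequence of its own, was counted at 0.0661, 4227 and 35185 CPM in SR1848 embryos and at 959, 7358 and 24171 CPM in DMSO embryos, and 20 of the 80 SR1848 embryos were below every DMSO embryo. Of the counts of the pair, mt-Atp6 held 50.8 ± 34.9% in SR1848 embryos (median 46.3%, 6.92% to 100%) and 23.2 ± 14.9% in DMSO embryos (median 17.9%, 7.98% to 77.8%). More than 90% of the pair was on mt-Atp6 in 20 of 80 SR1848 embryos and in 0 of 50 DMSO embryos, and less than 25% in 30 and 38 embryos of those groups. The division is described here without a test of its own. The level of Gm10925 did not differ in edgeR (log2 fold change 0.01, adjusted p = 0.981), whereas limma-voom, which works on the log scale, called it lower (-2.07, adjusted p = 0.00114).

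When the counts of the nuclear copies were added to each message, mt-Atp6 came close to its neighbours on the genome. The sum stood at 2664, 11836 and 39779 CPM in SR1848 embryos and at 2309, 8882 and 27069 CPM in DMSO embryos. It was 1.39-fold higher with SR1848 (log2 fold change 0.47, SE 0.145, edgeR adjusted p = 0.00191), and with total counts in place of TMM the difference no longer passed (0.27, edgeR adjusted p = 0.0615), a setting in which 2 of the 10 messages were higher and 0 lower, where 40.1% and 40% of genes were. The sum of mt-Co2 with its copies did not pass with TMM (0.30, adjusted p = 0.0527). In this form 6 of the 10 messages were higher, where 45.6% of genes were, and 0 were lower, where 36.6% were. All 11 copies are annotated as pseudogenes, and how many of their counts came from mitochondrial RNA was not tested.

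The other chromosome 1 copies took smaller parts. For mt-Co2 and Gm28661 the share on the mitochondrial gene was 84.3 ± 19.7% with SR1848 and 72.2 ± 17.4% with DMSO. For mt-Co3 and Gm28437 it was 90.2 ± 10.1% and 89.1 ± 7.78%, and for mt-Co1 and Gm29216, which matches only the end of the message, 92.5 ± 2.77% and 91.7 ± 2.95%. In the mt-Nd4 pair all but a trace was on the mitochondrial gene: the copy Gm28439 was at a median of 0 CPM in both groups.

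**Figure D2:**
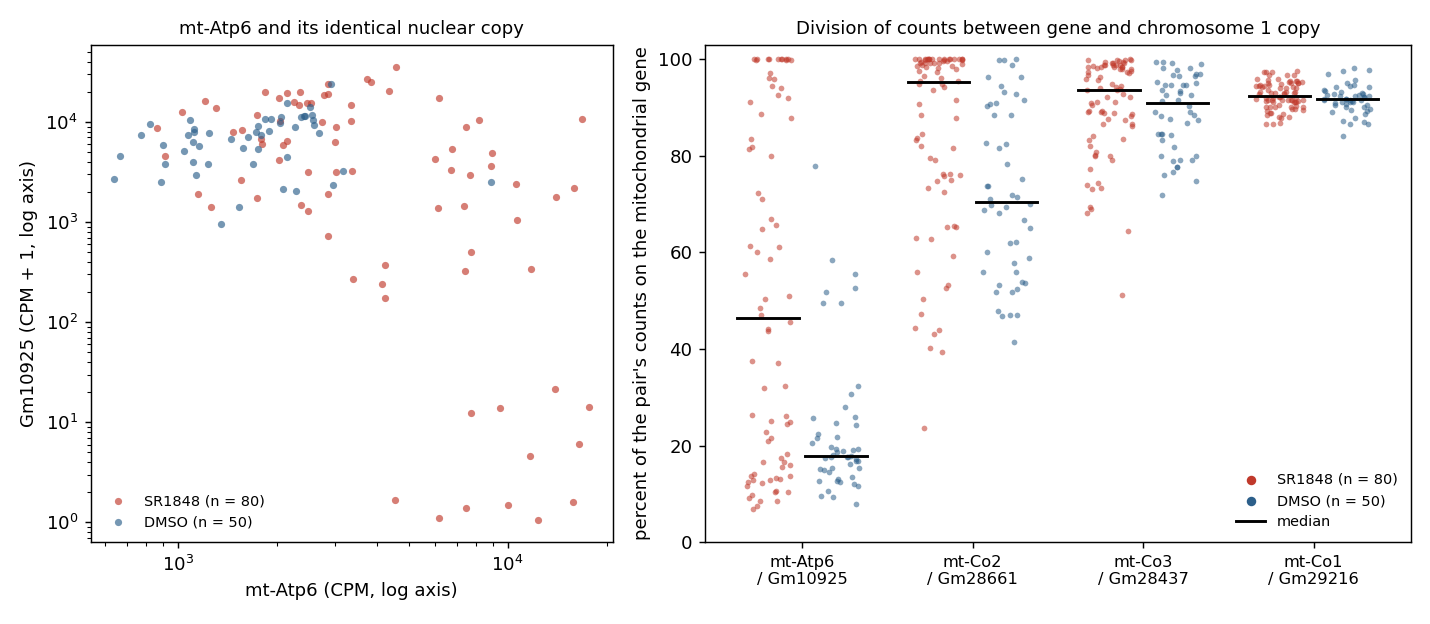
Left, mt-Atp6 against Gm10925 in each embryo, in TMM-scaled CPM on log axes (1 CPM added to Gm10925); right, percent of the counts of each pair that fell on the mitochondrial gene, with SR1848 embryos (n = 80) left of DMSO embryos (n = 50) and a black bar at the median. A set of SR1848 embryos lies near 0 CPM of Gm10925, where no DMSO embryo lies, and the median share on mt-Atp6 is 46.3% with SR1848 and 17.9% with DMSO.

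**Figure D3:**
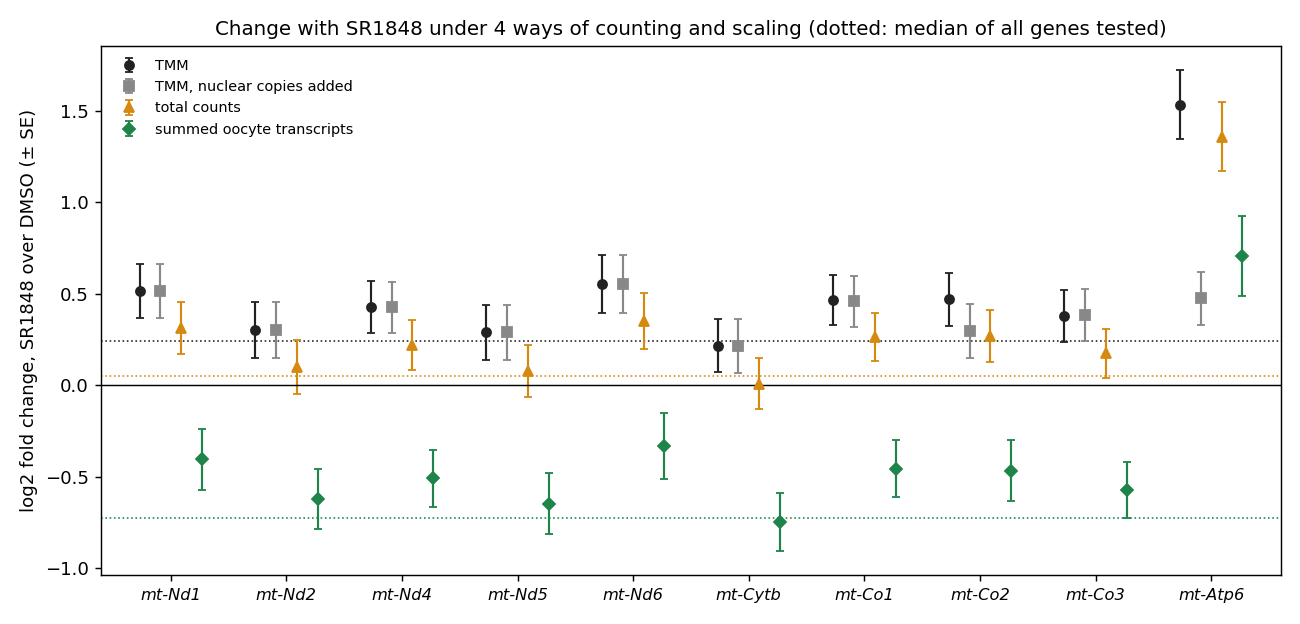
Log2 fold change of each message, SR1848 over DMSO, with its SE, from edgeR with TMM, with TMM after the nuclear copies were added, with total counts and with the summed oocyte transcripts as library size. Dotted lines mark the median of all genes tested under each scaling, and the mt-Atp6 value of 1.53 comes down to 0.47 with the copies added.

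Per kilobase of message, mt-Cytb was the highest in both groups, at 14423 ± 8625 CPM per kb in SR1848 embryos (n = 80) and 12420 ± 5766 CPM per kb in DMSO embryos (SD, n = 50). In DMSO embryos the order below it was mt-Nd1, mt-Co1, mt-Co3, mt-Co2, mt-Nd4, mt-Atp6, mt-Nd2, mt-Nd5 and mt-Nd6. Between neighbours in that order, the mean log2 ratio exceeded its SD over embryos at 3 steps: from mt-Cytb to mt-Nd1, from mt-Nd2 to mt-Nd5 and from mt-Nd5 to mt-Nd6. The stretch from mt-Nd1 (4596 CPM per kb) to mt-Nd2 (1692 CPM per kb) had no such step between neighbours. In SR1848 embryos the steps were from mt-Nd4 to mt-Nd2, from mt-Nd2 to mt-Nd5 and from mt-Nd5 to mt-Nd6. The neighbours compared depend on mt-Atp6, which stood between mt-Nd4 and mt-Nd2 in DMSO embryos and between mt-Cytb and mt-Nd1 in SR1848 embryos. As log2 ratios of counts without regard to length, mt-Nd2 over mt-Nd4 was -1.50 ± 0.24 with SR1848 and -1.34 ± 0.23 with DMSO. The same ratio of mt-Nd1 over mt-Cytb was -1.42 ± 0.28 with SR1848 and -1.66 ± 0.34 with DMSO. In SR1848 embryos the order was the same but for mt-Atp6, which stood next to mt-Cytb at 7891 ± 6452 CPM per kb as deposited, against 2725 ± 1783 CPM per kb in DMSO embryos. With its copies added mt-Atp6 stood at 18676 CPM per kb with SR1848 and at 13434 CPM per kb with DMSO, above the mt-Cytb mean in each group. At the low end mt-Nd5 had 1115 and mt-Nd6 had 442 CPM per kb with SR1848, against 913 and 301 CPM per kb with DMSO.

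The balance among the messages was then tested with the summed counts of the 13 mitochondrial protein genes as the library size, which leaves out any scaling against nuclear genes. As deposited, mt-Atp6 was higher relative to the mitochondrial total (log2 change 1.13, SE 0.185, edgeR adjusted p = 3.64e-08), and mt-Cytb, mt-Nd5 and mt-Nd2 were lower, where 34.5% of all genes were called higher and 39.5% lower in the same fit. The mt-Cytb change was -0.23 (SE 0.0571, edgeR adjusted p = 0.000224), with a share of 27.9 ± 4.34% of the mitochondrial total in SR1848 embryos and 32.7 ± 4.77% in DMSO embryos. The changes of mt-Nd5 and mt-Nd2 were -0.21 and -0.18 (edgeR adjusted p = 0.00609 and 0.00676).

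With the copies added to both the message and the total, the shifts were small. The mt-Atp6 change came to 0.12 (SE 0.053, edgeR adjusted p = 0.0276) and the mt-Cytb change to -0.15 (SE 0.0506, edgeR adjusted p = 0.00462), and no other message passed, where 36.9% of genes were called higher and 37.6% lower. In that form mt-Cytb held 24.3 ± 2.22% of the mitochondrial total with SR1848 and 27.04 ± 3.32% with DMSO. The mt-Atp6 sum held 18.96 ± 2.24% with SR1848 and 17.4 ± 1.90% with DMSO. All shares have 1 denominator, so a larger share on mt-Atp6 lowers those of the other messages. Among the embryos numbered above 40, 1 message was higher and 1 lower as deposited, where 23% and 27.4% of genes were, and with the embryo number as a block 1 was higher and 2 lower, where 25.4% and 44.9% were.

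Ratios between messages were compared next. In all 36 pairs without mt-Atp6 the mean log2 ratio differed between SR1848 and DMSO embryos by at most 0.28. The steadiest pair in DMSO embryos, mt-Nd4 and mt-Co3, which lie in the same part of the genome, had log2 ratios of 0.62 ± 0.22 with SR1848 and 0.59 ± 0.17 with DMSO. The pair mt-Nd5 and mt-Nd6, which are read from opposite strands over overlapping ends, differed the most, at 3.17 ± 0.35 with SR1848 and 3.45 ± 0.28 with DMSO. Its lead was slight: over the 36 pairs the difference ran from -0.28 to 0.28, so another pair differed nearly as much in the other direction. In the 9 pairs with mt-Atp6 the SD of the ratio was 1.16 to 1.38 with SR1848 and 0.71 to 0.87 with DMSO as deposited, and 0.22 to 0.55 with SR1848 and 0.23 to 0.45 with DMSO once the copies were added.

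Across embryos the messages went up and down together. Over the 36 pairs without mt-Atp6, Pearson's r of log2 CPM was 0.82 to 0.98 in SR1848 embryos (n = 80) and 0.78 to 0.97 in DMSO embryos (n = 50), and Spearman's rho was 0.82 to 0.97 and 0.77 to 0.96. For each pair, the 2 embryos farthest from the group median of its first-listed message were then left out. The ranges of r became 0.80 to 0.97 with SR1848 and 0.73 to 0.96 with DMSO. For the 9 pairs with mt-Atp6, r was 0.11 to 0.42 with SR1848 and 0.28 to 0.50 with DMSO as deposited, and 0.83 to 0.97 with SR1848 and 0.80 to 0.95 with DMSO with the copies added. All values of an embryo come from 1 library and share its total count, so these correlations are given as descriptions. DMSO embryo 50 was the highest of its group for 9 of the 10 messages, the exception being mt-Atp6, and it held 10.9% of its counts on the 10 messages with 5641164 counts in all. The other ends were shared among more embryos: SR1848 embryo 9, with the highest sum of its group, was the highest for 3 messages, SR1848 embryo 57, with the lowest sum, was the lowest for 4, and DMSO embryo 31, with the lowest sum, was the lowest for 6.

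**Figure D4:**
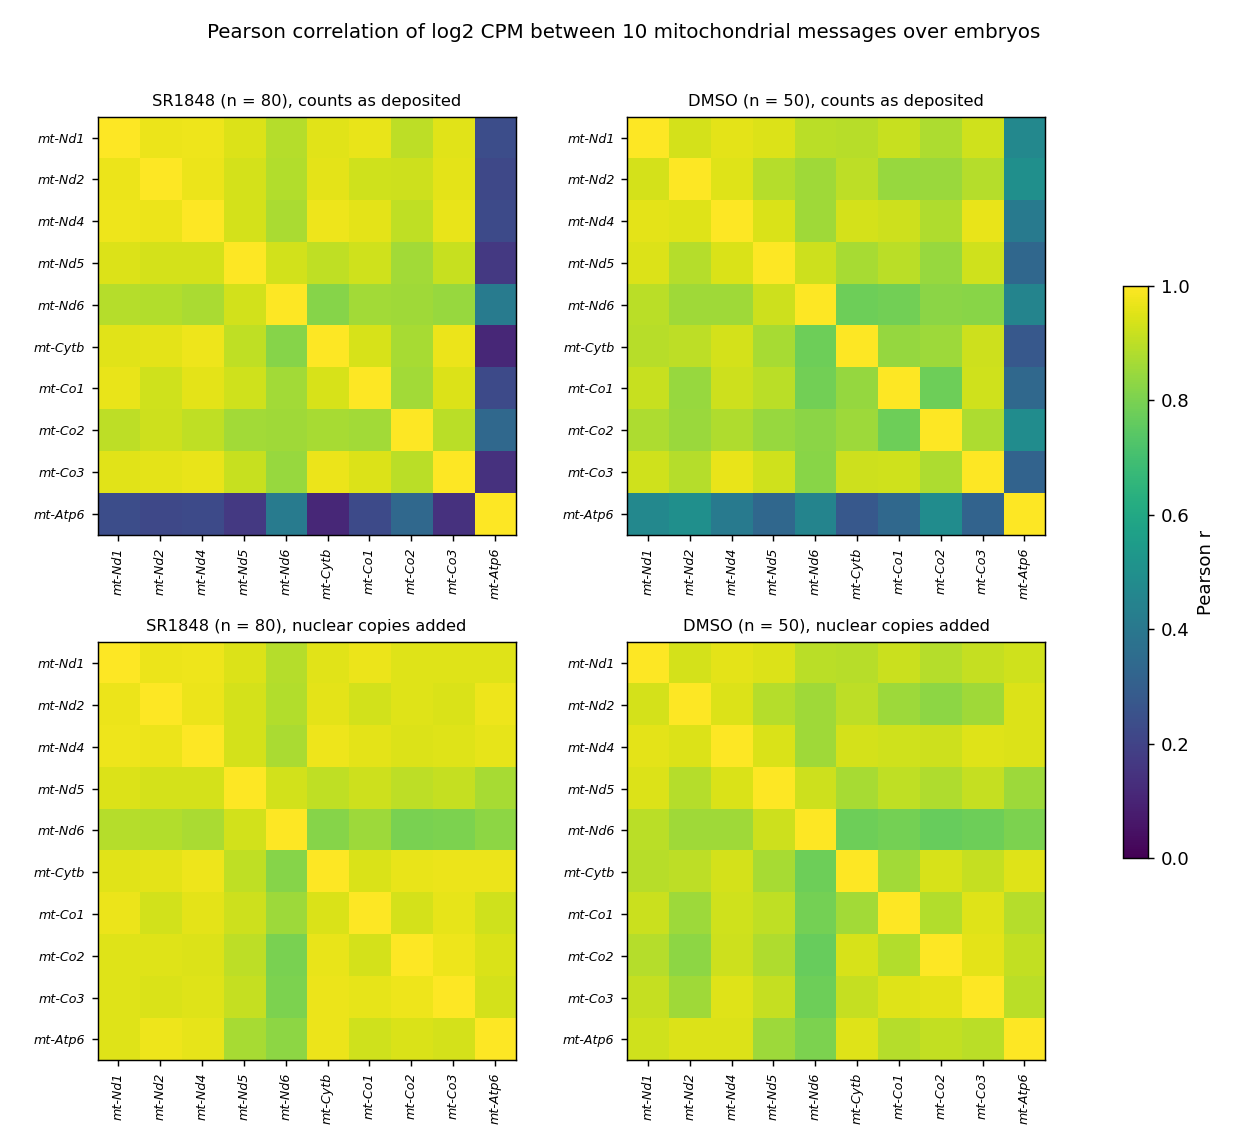
Pearson correlation of log2 CPM between the 10 messages over SR1848 embryos (n = 80, left) and DMSO embryos (n = 50, right), with counts as deposited (top) and with nuclear copies added (bottom). As deposited, mt-Atp6 forms a row and column of low values, with r between 0.11 and 0.42 in SR1848 embryos and between 0.28 and 0.50 in DMSO embryos, and the rest lie at 0.78 or above.

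Embryos differed more among themselves with SR1848 for some of the messages. The coefficient of variation of CPM ran from 58.4% (mt-Co3) to 81.8% (mt-Atp6) in SR1848 embryos and from 41.6% (mt-Nd5) to 65.4% (mt-Atp6) in DMSO embryos, and it was larger with SR1848 for each of the 10. In the test of absolute deviations from the group median, on log2 CPM with limma over all genes, 4 of 10 were more spread with SR1848, where 40.8% of all genes were, and 0 were less spread, where 1.5% were. These were mt-Nd1 (mean deviation larger by 0.23, adjusted p = 0.0223), mt-Nd2 (0.24, adjusted p = 0.0292), mt-Nd5 (0.24, adjusted p = 0.0171) and mt-Atp6 (0.42, adjusted p = 0.000563). For mt-Atp6 with its copies added the difference was 0.14 and did not pass (limma adjusted p = 0.198), while the copies themselves were more spread, Gm10925 by 2.25 (limma adjusted p = 0.000165) and Gm28661 by 2.30 (limma adjusted p = 3.51e-05). The share of messages called was close to that of all genes. Among the embryos numbered up to 40, 2 messages were more spread and 0 less, where 23% and 0.902% of genes were, and above 40 the counts were 0 and 0, where 11.1% and 0.239% were.

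The other 3 mitochondrial protein genes behaved much like the 10. The mt-Atp8, mt-Nd3 and mt-Nd4l messages were all called higher with TMM, where 45.6% of all genes were called higher and 36.5% lower. Their log2 fold changes were 0.49, 0.42 and 0.37 (edgeR adjusted p = 0.00295, 0.0128 and 0.0131). None of them passed relative to the mitochondrial total, where 34.5% of all genes were called higher and 39.5% lower. The ribosomal RNAs of the mitochondrion were not analysed here. A nuclear gene that resembles one of them was in the table: Gm20594 (chr6:79817916-79818364, plus strand) matched mt-Rnr2, the 16S ribosomal RNA, at 88.4% over 439 bases, and shared 42 of its 419 stretches of 31 bases with it. Its level was 148, 479 and 1724 CPM in SR1848 embryos and 116, 381 and 1077 CPM in DMSO embryos (higher with SR1848, log2 fold change 0.40, SE 0.148, edgeR adjusted p = 0.0109). Its r with the summed messages was 0.93 with SR1848 and 0.89 with DMSO.

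The likeness of other genes to the summed messages was ranked over 6582 genes with a mean of at least 20 CPM, by Pearson's r of log2 CPM, leaving out the mitochondrial genes, their nuclear copies and Gm20594. In SR1848 embryos the 5 highest of the genes ranked were Fbxw24 (r = 0.81), Fbxw16 (0.77), Fbxo11 (0.76), Fbxw15 (0.76) and Hax1 (0.74). In DMSO embryos they were Fbxw16 (0.80), Fbxw24 (0.79), Dennd10 (0.79), Fbxw15 (0.78) and Platr25 (0.78). Fbxw15, Fbxw16 and Fbxw24, related F-box genes, were in both sets. Hax1 had r = 0.47 in DMSO embryos, and Dennd10 had r = 0.42 in SR1848 embryos. These r values are the highest of many and share the library totals, so they are descriptions.

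Among nuclear genes that act on mitochondrial DNA and RNA, those of transcription were mostly lower with SR1848: 6 of 8 tested fell, 1 rose, and the median log2 fold change was -1.21, where 45.6% of all genes tested were higher, 36.5% were lower and the median was 0.24. Polrmt, the mitochondrial RNA polymerase, had 0, 4.33 and 39.4 CPM in SR1848 embryos and 5.05, 43.7 and 114 CPM in DMSO embryos (5.56-fold lower, edgeR adjusted p = 8.02e-18). Tfb2m, which opens the promoter for the polymerase, had 48.4, 106 and 227 CPM with SR1848 and 150, 328 and 568 CPM with DMSO (3.01-fold lower, edgeR adjusted p = 1.17e-40). Any relation to the levels of the 10 messages was not tested.

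Genes of the later steps were mixed, and their counts stand beside 45.6% higher and 36.5% lower over all genes. In the list for cutting and modifying mitochondrial RNA 7 of 17 tested rose and 8 fell (median -0.19), among them Fastkd1, an RNA-binding protein (2.06-fold higher), Gtpbp3, a transfer RNA modifier (5.74-fold lower), and Trmt10c, a subunit of the RNase P that cuts the precursors (1.98-fold lower). In the list for tailing and decay 4 of 9 rose and 3 fell (median 0.32). Angel2, which removes cyclic phosphates from RNA ends, was 2.61-fold higher, and Supv3l1, the helicase of the mitochondrial RNA degradosome, 2.84-fold higher. Of 12 genes of mitochondrial translation 4 rose and 8 fell (median -0.48), with the elongation factor Tufm 6.21-fold lower, Taco1, an activator of mt-Co1 translation, 4.62-fold lower and the initiation factor Mtif3 1.81-fold higher. Of 17 genes that maintain mitochondrial DNA 6 rose and 10 fell (median -0.33), with Rrm2b, a ribonucleotide reductase subunit, 3.02-fold higher and the pyrimidine nucleotide carrier Slc25a36 7.93-fold lower.

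The nuclear partners of the same complexes were more often called lower than higher, where 36.5% of all genes were lower and 45.6% higher. For complex I 20 of 36 tested subunits fell and 5 rose (median -0.71), with Ndufa11 3.70-fold lower and Ndufab1 2.57-fold higher. For complex III 8 of 9 fell and 1 rose (median -1.56), with Uqcrc2 6.58-fold, Uqcrfs1 3.60-fold and Uqcrh 2.94-fold lower. For complex IV 6 of 11 fell and 1 rose (median -0.39): Cox7c was 18.8-fold lower, with all 80 SR1848 embryos below every DMSO embryo, Cox6b1 was 6.74-fold lower, and Cox8a, the most abundant, was 1.59-fold higher. For ATP synthase 11 of 14 fell and 2 rose (median -1.43), with Atp5a1 at 44.9 ± 21.6 CPM in SR1848 embryos and 180.1 ± 40.4 CPM in DMSO embryos, Atp5c1 2.71-fold lower and Atp5b 1.23-fold higher. All the adjusted p-values of the genes named here and in the foregoing list of RNA and DNA genes were at most 0.00219 (edgeR).

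Regulators of mitochondrial number and turnover were tested as well, against the same 45.6% of all genes higher and 36.5% lower. Of 13 genes that regulate mitochondrial biogenesis 9 fell and 3 rose (median -1.43), and the subunits of the nuclear respiratory factor GABP were all lower: Gabpa 9.99-fold, Gabpb2 12.4-fold, and Gabpb1 with 60.6 ± 22.6 CPM in SR1848 embryos and 164 ± 36.4 CPM in DMSO embryos (edgeR adjusted p = 8.35e-32, 4.44e-41 and 7.67e-34). Of 20 genes of mitochondrial fusion, fission and mitophagy 10 rose and 6 fell (median 0.23), near the shares and the median of all genes. Bnip3, a mitophagy receptor, was 14.3-fold lower, with all 80 SR1848 embryos below every DMSO embryo (edgeR adjusted p = 6.68e-54). The protease Yme1l1 was 3.84-fold lower (edgeR adjusted p = 1.35e-46).

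The libraries held 2730852 to 7824458 counts with SR1848 and 3173683 to 8438537 with DMSO, with medians of 15460 and 16028.5 detected genes, and 1 SR1848 embryo was low enough to be left out in an alternative that changed no count of calls among the 10 messages. The tested transcripts typical of oocytes, 42 in number, were abundant, and the list summed to 20417 to 90307 CPM with SR1848 and 13228 to 37450 CPM with DMSO, of which 35 were higher and 3 lower with SR1848 (median 0.82). Of 19 tested genes of the 2-cell stage 17 were higher and 2 lower (median 2.46), and over all genes 45.6% were higher and 36.5% lower. Markers of other cells were sparse but not equal: 12 cumulus markers summed to 3.01 to 617 CPM with SR1848 and 26.9 to 93.6 CPM with DMSO (6 of them under 1 CPM), 8 sperm markers to at most 12.1 and 3.82 CPM (7 under 1 CPM), and 8 blood markers to 59.7 to 678 and 6.22 to 137 CPM (5 under 1 CPM), most of it Hba-a1 and Hba-a2. Their part in the mitochondrial values was not tested.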

How the data were processed

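Per the submitters' processing notes, kallisto 0.46.1, DESeq2 1.32.0, R 3.5.1, Trim Galore 0.6.2 and bcl2fastq were among the tools, and both hg19 and mm10 are listed without a role. The authors deposited a table of estimated counts for 119358 transcripts, in which 28.1% of values were not whole (tolerance 1e-06). Their log2 table of the same samples was not used. The authors' deposited comparison gives log2 fold changes and p-values and, for each transcript, a mean signal over all samples and a test score. Its fold changes were read as SR1848 over DMSO, a direction that matched the counts for 97.0% of 11261 transcripts with a base mean above 50, and its score was not used. Estimated counts divide reads that fit several transcripts among them, so near-identical copies have uncertain values.

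Counts were summed over the 117194 transcripts with a gene name and rounded; the rest, 0.960% of counts, stayed out. Genes kept by filterByExpr were tested with edgeR 4.0.16 (R 4.3.3; TMM, robust glmQLFit, glmQLFTest, two-sided, Benjamini-Hochberg over 13164 genes, threshold 0.05). The biological coefficient of variation was 0.770. The balance test used the 13 mitochondrial protein genes as library size, and the spread test used limma 3.58.1 on absolute deviations of log2 CPM (prior count 1) from the group median. SDs are between embryos. The level, balance and spread tests were run on simulated data. The level test called 40.3% of genes given a 1.5-fold change. The spread test called 37.4% of genes given extra spread at a mean of at least 20 CPM. The mitochondrial share, ratios and division between copies had no test. Reads carry no molecular identifiers.

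Copies were found with blastn 2.17.0 and by shared 31-base stretches in GENCODE M21 transcripts; positions follow that annotation, on mm10. Named genes are the 10 messages, the other mitochondrial genes, their nuclear copies, from each list the most abundant gene and the 2 of lowest p, and the 5 genes per group that correlate best with the summed messages, of which the text names a part. The members and lists were chosen with earlier results of these data known. Alternatives were other scalings, filters, tools, depth or detected genes as covariate, nuclear copies added, embryo numbers, low libraries left out (under the median by over 3 median absolute deviations) and the embryo number as a block; copies added together with total counts, and the splits of the mt-Atp6 division, were chosen after seeing the data. Embryo numbers do not pair the samples. Within groups, every pair of libraries differed beyond sampling noise (lowest chi-square per gene 19.2).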

Additional observations from a re-analysis of the deposited data

How the results depend on the processing

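Of 170 fold changes of the messages recomputed under 17 alternatives, 132 kept their direction and their side of the threshold. With the summed oocyte transcripts, themselves higher with SR1848, as library size, 1 message was called higher and 8 lower, where 15.8% and 58% of all genes were. Under that scaling 9 changed direction: mt-Co1 -0.46, mt-Co2 -0.47, mt-Co3 -0.57, mt-Cytb -0.75, mt-Nd1 -0.41, mt-Nd2 -0.62, mt-Nd4 -0.51, mt-Nd5 -0.65 and mt-Nd6 -0.33. Called higher were 3 messages with total counts, where 40.1% of all genes were, and 2 with total counts and copies added, where 40.1% were. Among embryos numbered above 40 it was 1 (mt-Atp6), where 33.4% of all genes were, and mt-Cytb was at -0.077. Relative to the mitochondrial total, 1 message was called lower both among embryos above 40 and with copies added, where 27.4% and 37.6% of all genes were. Uncalled balance values that changed sign were mt-Co2 (-0.0264 above 40 and -0.0866 with copies), mt-Co3 (0.0034) and mt-Nd4 (0.0538) with copies, and mt-Nd1 (-0.0155) and mt-Nd6 (-0.0516) among embryos up to 40. In the spread test 2 messages were called more spread up to 40 and 0 above 40, where limma called 23% and 11.1% of all genes. Each split held fewer embryos, and causes were not tested. Embryo numbers occur in both groups but did not pair the samples (correlation of deviations -0.19 to 0.12 over 50 pairs, 1 embryo correlating best with its own number). With the embryo number as a replicate block 7 messages were called higher (mt-Atp6 1.204), where 41.3% of all genes were. Relative to the total 1 was higher and 2 lower, where 25.4% and 44.9% of all genes were, with mt-Nd2 no longer passing (-0.12). The mean share of mt-Atp6 in the pair with Gm10925 was 50.6% with SR1848 and 24.4% with DMSO among embryos up to 40, and 51.1% and 20.4% above 40. The levels of mt-Atp6, mt-Co2 and mt-Co3 are uncertain because nearly all of their sequence is shared with copies; what depth adds to that was not tested.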
